A study of Mus musculus with 6 samples.

Results

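The LIM-only genes Lmo1, Lmo2, Lmo3 and Lmo4 and the LIM-domain-binding genes Ldb1 and Ldb2 were followed in the posterior eye of embryonic mice. These 6 genes were covered by 8 probe sets of the Mouse 430 2.0 array, out of 45037 probe sets without the controls. Every probe set that the platform annotation assigned to a member was taken, and 0 of them were shared with another gene symbol. The family was chosen by the measured signal of Lmo1, which had stood among the genes higher in Oa1-/- eyes in an earlier ranking of these arrays. The genotype difference of Lmo1 is therefore given as a description, with no test.

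The mutant mice were Oa1-/- and lacked the gene now named Gpr143. It encodes a melanosomal receptor that couples to G proteins, and people without it have ocular albinism. They were set against wild-type (WT) mice. Eyes were taken at embryonic day 15.5, the anterior segments were cut away, and the eyes of 6 embryos of 1 dam made up 1 pool. There were 3 Oa1-/- and 3 WT pools, each on 1 array, so n = 3 means 3 litters. Strain, embryo sex and how much of Oa1 was deleted are not stated in the labels. Values are MAS5 signals on a linear scale, and differences are changes of log2(signal + 16), Oa1-/- minus WT.

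LIM-only proteins consist of little more than a pair of LIM domains, zinc-binding modules that hold other proteins and do not bind DNA. LDB proteins dimerise and carry a short segment that grips LIM domains, so they tie LIM-only proteins, LIM homeodomain transcription factors and their DNA-bound partners into 1 complex. A LIM-only protein competes with LIM homeodomain factors for the same LDB segment, which makes the balance between the groups part of how such complexes work. In the developing mouse eye, LIM homeodomain factors such as Lhx2 and Isl1 act in progenitors and in ganglion cells.

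Upstream sequence of Lmo1 is shown because its signal separated the genotypes, and that of Lmo4 as the member with the least spread between arrays. Both are the 250 bases before the most upstream start site in RefSeq (GRCm38.p6, minus strand, 5′ to 3′, at chr7:109175208-109175457 and chr3:144205256-144205505). Capitals mark TAATTA, the core letters that many LIM homeodomain factors read.
Lmo1: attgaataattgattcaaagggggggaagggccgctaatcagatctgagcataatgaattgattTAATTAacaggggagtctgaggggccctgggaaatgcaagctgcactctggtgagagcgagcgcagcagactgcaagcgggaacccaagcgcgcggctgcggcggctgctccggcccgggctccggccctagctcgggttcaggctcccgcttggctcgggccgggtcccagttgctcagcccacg
Lmo4: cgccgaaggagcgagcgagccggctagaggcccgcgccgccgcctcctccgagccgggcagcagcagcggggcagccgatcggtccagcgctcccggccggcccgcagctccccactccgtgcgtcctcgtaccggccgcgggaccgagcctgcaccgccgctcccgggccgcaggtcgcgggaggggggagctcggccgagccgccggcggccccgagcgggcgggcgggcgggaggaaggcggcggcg

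The Lmo1 window held 1 TAATTA, whose first base lies 186 bases before the start site, and the Lmo4 window held 0. TAATTA is its own reverse complement, so 1 search covered both strands, and it occurred in 4.84% of the 32851 RefSeq windows of the same length. An E-box, CANNTG on either strand, the site of the bHLH factors that LIM-only proteins join, occurred once in the Lmo1 window and 0 times in that of Lmo4, against 66.2% of all windows with at least 1. AGATAA on either strand, letters read by GATA factors, occurred in neither window and in 9.99% of all windows. GC content was 61.2% in the Lmo1 window and 82.4% in the Lmo4 window, with a median of 52.4% over all windows. These matches describe letters only, since the arrays do not measure binding.

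Before the members, the arrays were checked. Gpr143 averaged 24.5 ± 16.9 in Oa1-/- and 251 ± 5.30 in WT eyes (SD, n = 3 each), and its groups did not overlap. The Oa1-/- values lay near the bacterial controls, so the size of the log2 change follows the pseudocount: −2.82 with 16 (SE 0.33, limma adjusted p = 0.287), −3.64 with 1 and −1.85 with 64. WT replicate 3 stood apart in the Y-linked gene Eif2s3y, at 9.26, while the other arrays read between 406 and 805. The Y-linked Kdm5d (13.5) and Uty (14.4) were likewise below the highest bacterial control of that array (29.9). Its signal for Xist, which female cells express, was the highest of the arrays, at 14194.5. Male RNA was therefore not detected above background in that pool, unlike in the other pools. Oa1-/- replicate 1 had the highest signal for the 3′ control of 18S ribosomal RNA, at 6348, and the remaining arrays ran from 1476 to 2618. Its median signal was the lowest, at 93.6, against 108 to 129 on the remaining arrays. On the first principal component, with 46.4% of the variance, it lay at −56.8 and the remaining arrays from −16.2 to 26.4. The progenitor factor Pax6 read 10597 to 11541 in Oa1-/- and 10026 to 10063 in WT eyes, and the pigment gene Dct 8728 to 9838 in Oa1-/- and 7280 to 9961 in WT eyes, so transcripts of retina and pigment cells were measured. The lens gene Cryaa read 23318 to 23580 in Oa1-/- and 19548 to 24690 in WT pools, so lens RNA was present although the anterior segments had been removed. Rpe65, a visual cycle enzyme of the mature pigment epithelium, had a mean of 4.06 in Oa1-/- and 7.47 in WT eyes, below the highest bacterial control probe set, which read 22.1 to 39.3 over the arrays.

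All 8 member probe sets passed the filter on low values, a mean log2(signal + 16) above the 40th percentile, equal to a signal of 63.7. In limma 0 of the 7 probe sets outside Lmo1 had an adjusted p below 0.05, and over all 27029 probe sets tested 0 did, a share of 0%. At an unadjusted p below 0.05 the share of all probe sets was 4.11%, and 0 of the 7 member probe sets outside Lmo1 were there. The log2 change was above 0 in each of the 7 member probe sets outside Lmo1, and in 47.5% of all probe sets tested. The median change was 0.09 over these 7, against −0.01 over all probe sets tested. With arrays left out, changes of Lmo3, Ldb1 and Ldb2 (1439557_s_at and 1456786_at) took both signs. With quantile normalization the 7 changes were again above 0 (median 0.11), as were 50.7% of all probe sets. Median centring adds 0.031 to every change by construction, which cannot turn a positive sign, and puts 55.3% of all probe sets above 0. The 7 probe sets share arrays, and 3 of them measure 1 gene, so these signs are not independent observations. The limma 95% interval covered 0 for each of the 7.

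**Figure D1:**
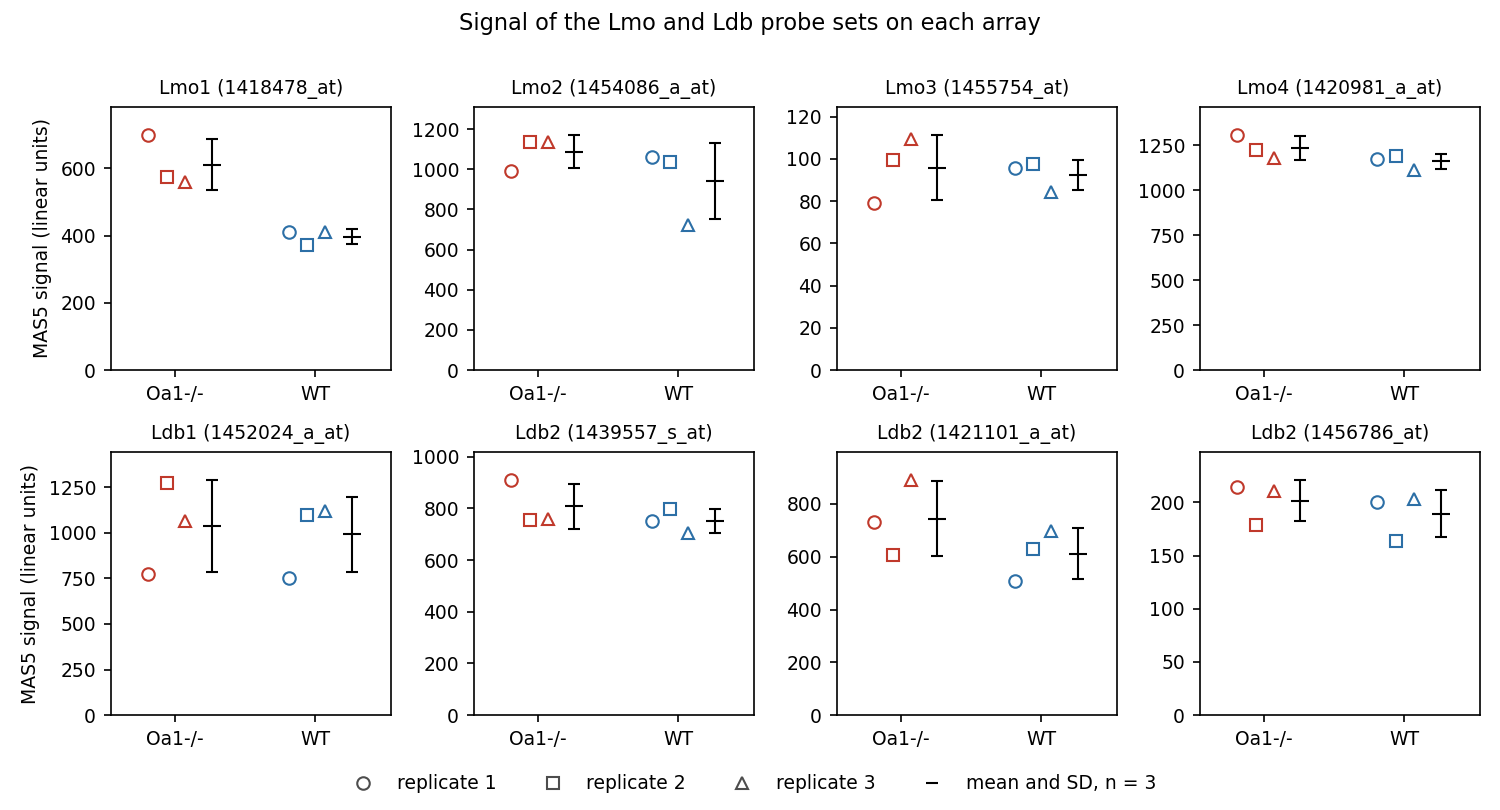
Signal of each Lmo and Ldb probe set (MAS5, linear units, axes from 0) on the 3 Oa1-/- arrays (red, left) and the 3 WT arrays (blue, right), with marker shapes for the replicate number and black bars for mean and SD. The genotypes are apart for Lmo1 (559 to 700.0 in Oa1-/-, 372 to 410.3 in WT) and overlap in each of the other 7 panels. Lmo1 chose the family by its higher signal, and 4.95% of all probe sets tested were apart in this direction.

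Lmo1, a LIM-only regulator expressed in the developing nervous system and known as an oncogene of T-cell leukaemia, had 1 probe set (1418478_at). It read 700.0, 576 and 559 on the Oa1-/- arrays, against 409.5, 372 and 410.3 on the WT arrays. All 3 Oa1-/- values lay above all 3 WT values, with Oa1-/- replicate 1 the highest. The means were 612 ± 76.9 in Oa1-/- and 397 ± 21.8 in WT eyes (SD, n = 3 each), a ratio of 1.54 and a log2 change of 0.60 (SE 0.13). The genotypes did not overlap in this direction for 4.95% of all probe sets, and 1337 probe sets shared that property. Leaving out 1 array at a time gave changes from 0.50 without Oa1-/- replicate 1 to 0.66 without Oa1-/- replicate 3, and leaving out both Oa1-/- replicate 1 and WT replicate 3 gave 0.52. In these pooled tissues, a change in the number of cells that express Lmo1 and a change in RNA per cell cannot be told apart.

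Some other measures went in the same direction as Lmo1. The 3′ control probe set of 18S ribosomal RNA read 6348, 2618 and 2608 on the Oa1-/- arrays and 1476, 1988 and 1988 on the WT arrays, with no overlap, and the 5′ one did not overlap either. The middle 18S control read 6576, 2826 and 1968 on the Oa1-/- arrays and 1371, 2397 and 1731 on the WT arrays, and these overlapped. Like Lmo1, all 3 controls were highest on Oa1-/- replicate 1. The retinal ganglion cell list had 11 of its 13 genes named on the array, and their summed signal ran from 49827 to 55292 in Oa1-/- and from 46290 to 48599 in WT eyes, with no member below the bacterial controls. Among all the lists counted, it was the only one whose sums did not overlap between genotypes. Such a sum weights bright genes most. Sncg, Stmn2 and Gap43, which averaged 4671, 7638 and 6149 over the arrays, had log2 changes of 0.36, 0.31 and 0.27. Ebf1 (−0.13), Ebf3 (−0.02) and Nefl (−0.05) went the other way, and Pou4f1 (0.10) and Rbpms (0.07) had overlapping groups. Groups were apart, higher in Oa1-/-, for 3 of the 11 genes (Isl1, Stmn2 and Gap43), against 4.95% of all probe sets. Of these 11, log2 changes were above 0 for 8 and below 0 for 3, 0 passed the adjusted threshold, and 3, Sncg, Stmn2 and Gap43, had an unadjusted p below 0.05, as did 4.11% of all probe sets. These 3 were lowest on WT replicate 1 and highest on Oa1-/- replicate 1, and WT replicate 1 was lowest for 6 of the 11. Without WT replicate 1, or without Oa1-/- replicate 1, or without WT replicate 2, 1 gene was at an unadjusted p below 0.05. The part of 18S signal and of ganglion cell RNA in the Lmo1 difference was not tested.

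Lmo2, which bridges bHLH and GATA factors in blood and endothelial precursors, had 1 probe set (1454086_a_at). It read 991, 1136 and 1135 in Oa1-/- eyes and 1063, 1035 and 723 in WT eyes. The groups overlapped, and the lowest value by far was that of WT replicate 3. The log2 change was 0.22 (SE 0.15, 95% interval −0.13 to 0.58, adjusted p = 0.985). Without WT replicate 3 it was 0.05, and with a covariate for Y-linked signal, which sets that same array apart, it was 0.03.

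Vascular markers were set beside Lmo2. All 14 endothelial genes were measured, with summed signals from 6830 to 7498 in Oa1-/- and from 6311 to 7748 in WT eyes. WT replicate 3 had the lowest sum, and 8 of the 14 genes were lowest there. Cdh5, the cadherin of endothelial junctions, read 461, 410 and 363 in Oa1-/- eyes and 479, 431 and 319 in WT eyes. Pecam1, an endothelial adhesion molecule, read 142, 154 and 162 in Oa1-/- eyes and 88.6, 199.9 and 83.6 in WT eyes. Of the 9 erythroid genes named on the array, 5 were lowest on WT replicate 3, and the sum ran from 7296 to 10738 in Oa1-/- and from 3937 to 23845 in WT eyes. The part of these cells in the Lmo2 signal was not tested.

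Lmo3, the closest relative of Lmo1 in the family, was the dimmest member (1455754_at). It read 78.9, 99.4 and 109 in Oa1-/- eyes and 95.4, 97.5 and 84.2 in WT eyes. The lowest and the highest of the 6 values were both from Oa1-/- eyes, and on every array the signal was at least 2.78 times that of the highest bacterial control. The log2 change was 0.04 (SE 0.20, interval −0.42 to 0.50, adjusted p = 0.996), and its sign turned without Oa1-/- replicate 3 (−0.05) and without WT replicate 3 (−0.02).

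Lmo4, a widely expressed LIM-only protein with roles in retinal interneurons of the mouse, was the most even member (1420981_a_at). It read 1308, 1222 and 1179 in Oa1-/- eyes and 1173, 1193 and 1114 in WT eyes. The groups overlapped at 1 pair of arrays, Oa1-/- replicate 3 and WT replicate 2. The SD was 5.31% of the mean in Oa1-/- and 3.51% in WT eyes. The log2 change was 0.09 (SE 0.09, interval −0.11 to 0.29, adjusted p = 0.985), and it stayed positive with each array left out, from 0.05 to 0.12.

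Ldb1, the main LDB cofactor, on which LIM homeodomain and LIM-only complexes are built, had 1 probe set (1452024_a_at) and the largest spread of the 8. It read 771, 1274 and 1064 in Oa1-/- eyes and 754, 1098 and 1120.1 in WT eyes. The lowest array of each genotype was replicate 1, and the other 4 arrays read 1064 to 1274. The SD was 24.4% of the mean in Oa1-/- and 20.7% in WT eyes, and the log2 change was 0.06 (SE 0.21, interval −0.42 to 0.53, adjusted p = 0.995). It was −0.10 without Oa1-/- replicate 2, −0.13 without WT replicate 1 and 0.35 without both Oa1-/- replicate 1 and WT replicate 3. The labels give no batch that the replicate number could stand for.

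Ldb2, the second LDB cofactor, had 3 probe sets. The brightest (1439557_s_at, a type that can match several transcripts) read 909, 753 and 761 in Oa1-/- eyes and 751, 796 and 705 in WT eyes, a log2 change of 0.10 (SE 0.11, interval −0.16 to 0.36, adjusted p = 0.985). The next (1421101_a_at) read 732, 607 and 890.0 in Oa1-/- eyes and 508, 629 and 697 in WT eyes, a log2 change of 0.27 (SE 0.17, interval −0.12 to 0.66, adjusted p = 0.985). Its change was 0.13 without Oa1-/- replicate 3, 0.14 without WT replicate 1, 0.40 without Oa1-/- replicate 2 and 0.10 with array weights. The dimmest (1456786_at) read 215, 179 and 211 in Oa1-/- eyes and 201, 164 and 204 in WT eyes, a log2 change of 0.09 (SE 0.17, interval −0.29 to 0.46, adjusted p = 0.987). The groups overlapped on each of the 3.

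The 3 Ldb2 probe sets differed in which arrays were high and low. The brightest was highest on Oa1-/- replicate 1, the next on Oa1-/- replicate 3 and the dimmest on Oa1-/- replicate 1, and the lowest array was WT replicate 3, WT replicate 1 and WT replicate 2 in the same order of probe sets. As a description over 6 arrays, their pairwise Pearson correlations were 0.18, 0.15 and 0.43. Without Oa1-/- replicate 1 and WT replicate 3 together, the change of the brightest was −0.03.

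**Figure D2:**
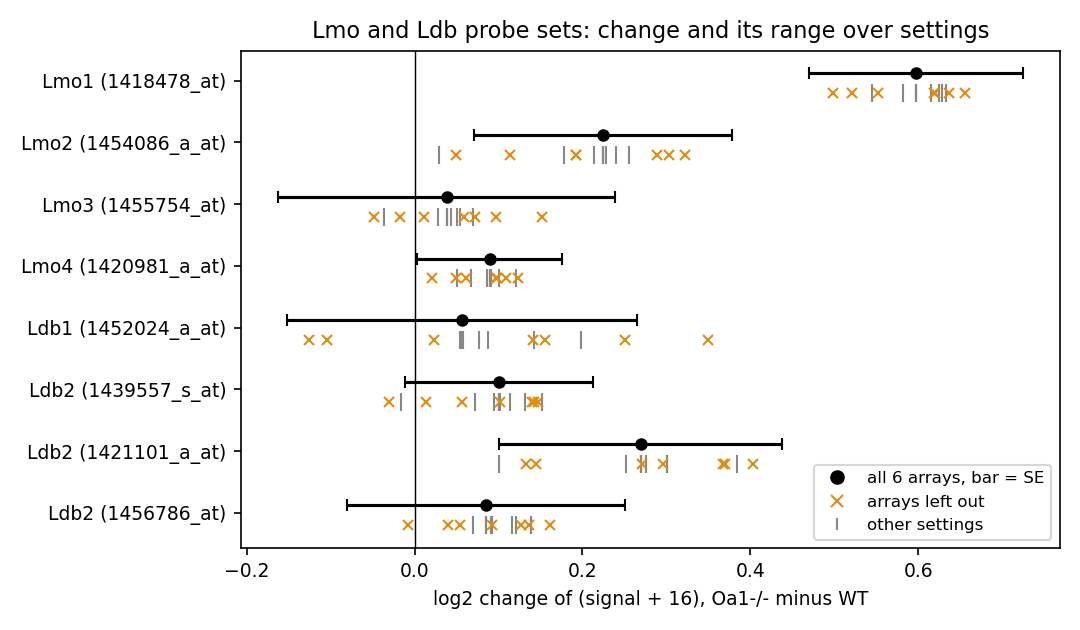
Log2 change of (signal + 16), Oa1-/- minus WT, for each Lmo and Ldb probe set (black point, all 6 arrays, bar = SE) with the values after leaving arrays out (orange crosses) and under the other settings (grey ticks). Lmo1 lies between 0.50 and 0.66 in every setting drawn, and the crosses of Lmo3, Ldb1 and 2 of the Ldb2 probe sets fall on both sides of 0.

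The arrays at which members deviated were not the same from gene to gene. Relative to its own 6-array mean on the log2(signal + 16) scale, Oa1-/- replicate 1 was 0.50 higher for Lmo1, 0.36 lower for Ldb1 and 0.21 lower for Lmo3. WT replicate 3 was 0.46 lower for Lmo2 and 0.17 higher for Ldb1. Among all pairs of member probe sets, the highest correlation over the 6 arrays was 0.92, between Lmo4 and the brightest Ldb2 probe set, and the lowest was −0.54, between Ldb1 and the dimmest Ldb2 probe set. These are descriptions of 6 points that share array and scaling.

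**Figure D3:**
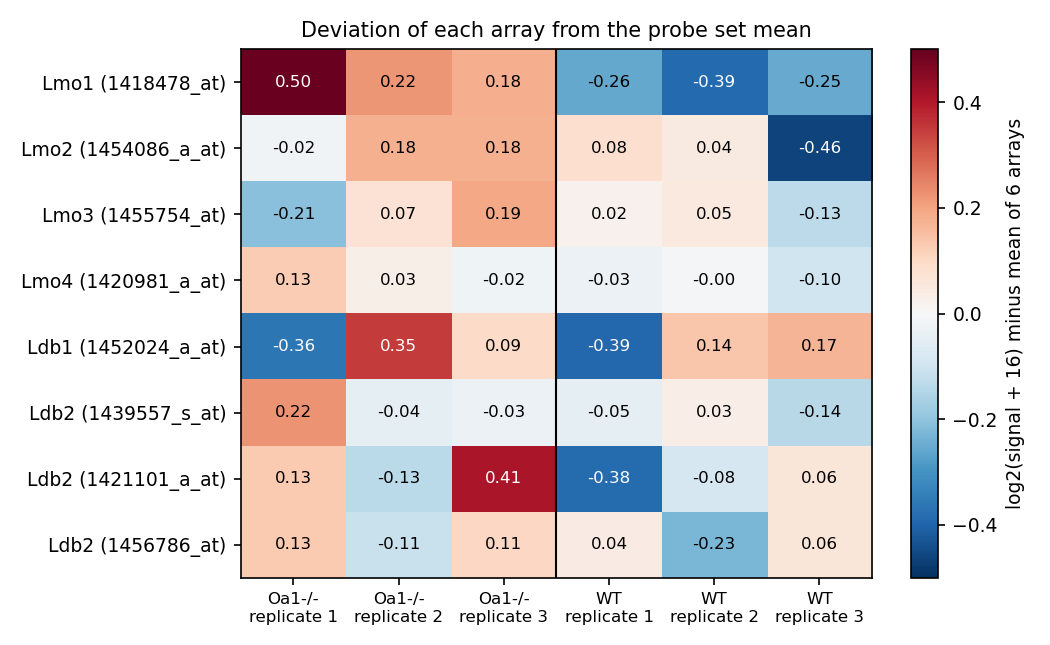
Deviation of each array from the 6-array mean of log2(signal + 16), for the 8 Lmo and Ldb probe sets (rows) on the Oa1-/- arrays (left of the line) and the WT arrays (right). Only the Lmo1 row has 3 positive values on the left and 3 negative values on the right. Lmo1 chose the family by its higher Oa1-/- signal, so this is no separate result, and 4.95% of all probe sets tested were apart in this direction. The Ldb1 row is lowest on replicate 1 of both genotypes, at −0.36 and −0.39.

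For each member's brightest probe set, the 3 genes with the most similar pattern were taken by Pearson correlation over the 6 arrays, among 22974 probe sets with 1 gene symbol. Their pattern over the arrays, and any genotype difference in it, follows from this choice. For Lmo1 they were Timm10 (0.99), Snrpa1 (0.98) and Lsm1 (0.98). Timm10, a small carrier protein of the mitochondrial intermembrane space, read 1846, 1664 and 1657 in Oa1-/- eyes and 1358, 1356 and 1417 in WT eyes. Ldb1 was followed by Cadm3 (1.00), Cc2d1b (0.99) and Mapre2 (0.98). Cadm3, a neuronal adhesion molecule, read 232, 618 and 448 in Oa1-/- eyes and 237, 440 and 481 in WT eyes. It was lowest on replicate 1 of both genotypes, the Ldb1 pattern by which it was picked.

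Lmo2 was followed by Qpctl, Hpgds and Top2b, all at 1.00, and Top2b, a DNA topoisomerase of postmitotic cells, read 179 on WT replicate 3 while the other arrays ran from 294 to 366. Lmo3 was followed by Nr2f2, Klhl13 and Wars2, all at 0.99. Lmo4 was followed by Eif3e (1.00), Eif2b1 (0.99) and Eif1b (0.99), and the brightest Ldb2 probe set by Jph1 (0.99), Sf3b2 (0.98) and Fdx1 (0.98). Between 36 and 131 genes per member, each counted by its most similar probe set, had a correlation above 0.95 over these 6 arrays.

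The LIM homeodomain factors, which share the LDB cofactors with the LIM-only proteins, were measured with 1 probe set per gene, the brightest. Of 12 genes 9 were bright enough to be tested, with log2 changes above 0 for 8 and below 0 for 1 (9 and 0 with quantile normalization or median centring), and the median was 0.10. Without WT replicate 1, the lowest array for 6 of the 12 genes, the counts were 5 and 4 and the median was 0.03. The summed signal was 9018 on WT replicate 1 and 10213 on WT replicate 3, the second within the 9980.1 to 10236 of the Oa1-/- arrays. In limma 0 of the 9 had an adjusted or an unadjusted p below 0.05. Isl1, needed for ganglion cell differentiation in mice, read 5956, 6049.7 and 6049 in Oa1-/- eyes and 5474, 5616 and 5710.1 in WT eyes. These groups did not overlap, with a log2 change of 0.10 (SE 0.06, adjusted p = 0.985), and 4.95% of all probe sets were apart in this direction. Lhx2, a factor of the optic vesicle and of retinal progenitors, averaged 2835 ± 175 in Oa1-/- and 2717 ± 418 in WT eyes (log2 change 0.07).

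The dimmer LIM homeodomain genes varied more. Lhx1, a horizontal cell factor, had a log2 change of 0.22 (SE 0.19), and Lhx9, found in amacrine cells, one of 0.19 (SE 0.26) that turned to −0.07 without WT replicate 1. Lmx1b, a factor of the periocular mesenchyme, had one of 0.04 (SE 0.18) that turned to −0.08 without WT replicate 3 and −0.09 without Oa1-/- replicate 3. Lhx5 averaged 27.9 in Oa1-/- and 35.1 in WT eyes, means within the range of the highest bacterial controls, and was not tested. Lhx8 averaged 6.19 in Oa1-/- and 14.1 in WT eyes, and Lmx1a 13.9 in Oa1-/- and 17.4 in WT eyes.

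Direct partners of LDB and LMO proteins had no adjusted p below 0.05. Of 8 genes 7 were named on the array and tested, 4 with a positive and 3 with a negative change (6 and 1 with median centring), and the median was 0.02. Ssbp2, Ssbp3 and Ssbp4, single-stranded DNA-binding proteins that stabilise LDB, had log2 changes of −0.02 (SE 0.07), 0.08 (SE 0.07) and −0.02 (SE 0.16). Rlim, a ubiquitin ligase that marks LDB proteins for degradation, had one of 0.02 (SE 0.10), and Deaf1, a transcription factor that binds LMO4, one of −0.05 (SE 0.12). Each of these 5 had an adjusted p of 0.985 or above in limma. Bex2, reported in human cells to bind LMO2 and singled out here after its values were seen, read 4345, 3685 and 3740 in Oa1-/- eyes and 3191, 3374 and 3309 in WT eyes. It had a log2 change of 0.25 (SE 0.09, unadjusted p = 0.0188, adjusted p = 0.985).

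The bHLH, GATA and co-repressor partners of LMO2 were counted in the same way. Of 12 genes 10 were tested, 3 with a positive and 7 with a negative change, with a median of −0.05 and 0 at an unadjusted p below 0.05. Without WT replicate 1 the counts were 5 and 5 and the median was 0.01. Tal1, the bHLH factor of the LMO2 complex in blood stem cells, read 93.6, 128 and 93.9 in Oa1-/- eyes and 224, 110.1 and 95.7 in WT eyes, a log2 change of −0.32 (SE 0.30) that was 0.02 without WT replicate 1. Lyl1, its close relative, had a log2 change of 0.08 (SE 0.22) and Gata2 one of −0.18 (SE 0.16) that ran from −0.08 without Oa1-/- replicate 1 to −0.30 without Oa1-/- replicate 3. Tcf12, a ubiquitous bHLH partner, had one of 0.01 (SE 0.09) that was −0.02 with quantile normalization. Gata3, singled out because its groups did not overlap, read 115, 114 and 112 in Oa1-/- eyes and 135, 151 and 205 in WT eyes (log2 change −0.45, SE 0.20), and 5.3% of all probe sets were apart in this direction. Gata1, the erythroid GATA factor, averaged 53.6 in Oa1-/- and 40.4 in WT eyes and was too dim to be tested. Each tested gene named here had an adjusted p of 0.985 or above in limma.

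**Figure D4:**
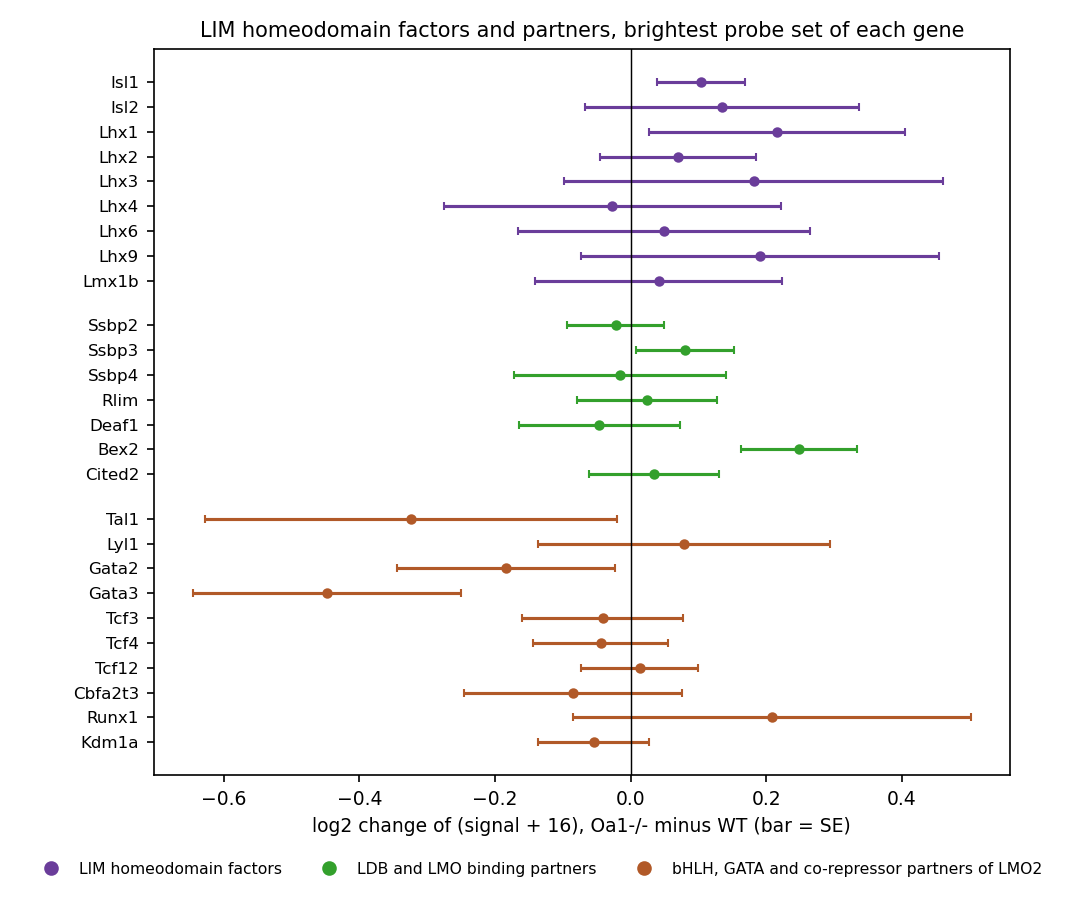
Log2 change of (signal + 16), Oa1-/- minus WT, with its SE for the brightest probe set of each tested LIM homeodomain factor (purple, 9 genes), LDB or LMO partner (green, 7 genes) and LMO2 partner (brown, 10 genes). Of the 9 LIM homeodomain genes 8 lie right of 0 (5 without WT replicate 1), and of the 10 LMO2 partners 7 lie left of it (5 without WT replicate 1).

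Cell type lists that bear on where these factors are expressed were counted in the same fit, and 0 of their genes had an adjusted p below 0.05. Amacrine and horizontal cell markers had 5 positive and 6 negative changes of 11 tested, with a median of −0.07 that was 0.15 without WT replicate 3. Tfap2b had a log2 change of −0.22 (SE 0.08, adjusted p = 0.985) and Ptf1a one of 0.15 (SE 0.13, adjusted p = 0.985), from 0.07 without WT replicate 2 to 0.29 without WT replicate 3. Prox1, named after its values were seen, had one of −0.61 (SE 0.19, adjusted p = 0.985). Of these 11, 2 (Tfap2b and Prox1) had an unadjusted p below 0.05 in limma, against 4.11% of all probe sets. The same 2 had groups apart, lower in Oa1-/-, against 5.3% of all probe sets. Without WT replicate 3, 2 genes of the list were higher and 1 lower at that unadjusted p. Retinal progenitor markers had 7 positive and 4 negative changes of 11, with a median of 0.02 that was −0.00135 with quantile normalization (5 positive and 6 negative) and 0.05 with median centring (10 positive and 1 negative). Without WT replicate 2 the counts were 4 and 7 and the median was −0.05. Of the 11, 1 (Pax6) had an unadjusted p below 0.05 in limma, against 4.11% of all probe sets. It also had groups apart, higher in Oa1-/-, against 4.95%. Ganglion cell markers had a median of 0.08, pigment cell markers 6 and 3 of 9 (median 0.04), endothelial markers 10 and 4 of 14 (median 0.07) and erythroid markers 2 and 5 of 7 (median −0.06). Periocular mesenchyme markers had 2 positive and 8 negative changes of 10 (median −0.30). Of the 10, 4 had an unadjusted p below 0.05, all lower in Oa1-/-, against 4.11% of all probe sets, and the same 4 had groups apart in that direction, against 5.3%. Fap and Fbln2 had log2 changes of −0.34 (SE 0.09) and −0.40 (SE 0.10), and Twist1 and Osr1, named after their values were seen, of −0.42 (SE 0.16) and −0.76 (SE 0.27), each with an adjusted p of 0.985 in limma. The number at an unadjusted p below 0.05 was 2 without Oa1-/- replicate 2. All 9 lens markers were positive (median 0.13), and skeletal muscle markers had 7 positive and 3 negative changes of 10 (median 0.06). Without WT replicate 1, lens markers had 3 positive and 6 negative changes (median −0.05) and muscle markers 2 and 8 (median −0.22). Muscle markers also had 2 and 8 without Oa1-/- replicate 1. Pigment cell markers had 4 and 5 without WT replicate 1, and endothelial markers 6 and 8 without WT replicate 3. Erythroid markers had 5 and 2 without Oa1-/- replicate 1.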

How the data were processed

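Total RNA of posterior eye segments was hybridised to 6 Affymetrix arrays, per the labels' protocols. The deposited signal intensity values come from MAS5 (version not given in the sources used here), run by the authors, per the submitters' processing notes. The mean after trimming 2% at each end was 500.002 on every array, so the deposited intensities had been scaled to a common target. Detection calls were not used here, and the 3 arrays of each genotype limit the precision. Gene names come from the platform annotation (1 symbol for 34945, several for 932, none for 9160).

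Values were taken as log2(signal + 16). The 64 control probe sets were left out, and probe sets above the 40th percentile of mean log2(signal + 16) were kept (27029). The test was limma 3.58.1 in R 4.3.3 (eBayes with an intensity trend, no covariate, two-sided, Benjamini-Hochberg adjustment over all probe sets kept, threshold 0.05). The pseudocount understates changes of dim probe sets. The code was tested on simulated data.

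The members, lists and alternatives were chosen with earlier results of these data known. The genes named were all member probe sets, Gpr143, list genes picked by role, other list members with an unadjusted p below 0.01 (Fap and Fbln2), and the 3 genes most like each member. Bex2, Crip2, Gata3, Sncg, Stmn2, Gap43, Prox1, Twist1, Osr1, Hbb-y, Lhx8, Lmx1a and the markers named in the check of the arrays fall outside this rule and were chosen after their values were seen. The lists cover LIM homeodomain factors, partners of LDB, LMO and LMO2, other LIM-domain proteins, and markers of ganglion, amacrine and horizontal, progenitor, pigment, mesenchyme, lens, muscle, endothelial and erythroid cells. The replicate number was used only in an alternative. Alternatives were other pseudocounts (1 and 64), other filters (none and the 70th percentile), quantile normalization, median centring, no intensity trend, array weights, a covariate for Y-linked signal, Ldb2 averaged over its probe sets, and fits with fewer arrays. List signs with arrays left out were added after seeing the data.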

Additional observations from a re-analysis of the deposited data

How the results depend on the processing

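The count past the adjusted threshold in limma among the Lmo and Ldb probe sets outside Lmo1 was 0 in every setting tried, as was that of the partner and marker lists. Over all probe sets it was 0 except for 2 with median centring and 2 with array weights. Of 135 recomputed changes of member probe sets 127 kept their sign and 8 changed it. Of the 135, 17 belong to Lmo1, whose change chose the family. Other filters, no intensity trend and the replicate block cannot alter a change, and median centring cannot turn a positive one. Signs kept by members under these settings were therefore fixed in advance. Of 384 recomputed changes for Gpr143 and the genes picked by role or by p, 23 in all, 34 changed sign. Gpr143 passed the threshold with median centring (−2.79). Genes named after their values were seen, and those named for likeness, were not refitted one by one. Same-numbered arrays did not deviate together (Pearson r −0.29, 0.15 and −0.25), and with the replicate block no call changed. The block leaves every change as it was by construction, because each replicate number is present in both genotypes.

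With the covariate for Y-linked signal the sign turned for Lmo3 (−0.037), Lmx1b (−0.096), Ssbp4 (0.15), Rlim (−0.030), Cdh5 (−0.14) and Fhl1 (0.071). With array weights it turned for Ldb2 1439557_s_at (−0.016), Lhx9 (−0.035), Lmx1b (−0.099), Tcf12 (−0.058), Pecam1 (−0.0085) and Cdh5 (−0.054). With quantile normalization it turned for Ssbp4 (0.018) and Tcf12 (−0.020), and with median centring for Ssbp2 (0.0088) and Ssbp4 (0.015). Median centring adds 0.031 to every change, which by itself turns these small negative values. The causes of the other sign changes were not tested.

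Leaving out 1 array at a time, or Oa1-/- replicate 1 together with WT replicate 3, gave changes of both signs for Lmo3 (−0.048 to 0.15), Ldb1 (−0.13 to 0.35), Ldb2 1439557_s_at (−0.030 to 0.15), Ldb2 1456786_at (−0.0083 to 0.16), Lhx2 (−0.014 to 0.19), Lhx9 (−0.071 to 0.35), Lmx1b (−0.093 to 0.14), Ssbp2 (−0.055 to 0.011), Ssbp4 (−0.11 to 0.14), Rlim (−0.067 to 0.086), Deaf1 (−0.12 to 0.011), Tal1 (−0.54 to 0.016), Lyl1 (−0.11 to 0.22), Tcf12 (−0.065 to 0.080), Cdh5 (−0.23 to 0.14) and Fhl1 (−0.21 to 0.050). Among changes that kept their sign, single arrays moved Lmo2 (0.049 to 0.32), Lmo4 (0.049 to 0.12), Ldb2 1421101_a_at (0.13 to 0.40), Lhx1 (0.13 to 0.32), Ssbp3 (0.048 to 0.12), Gata2 (−0.30 to −0.077), Pecam1 (0.16 to 0.72), Csrp2 (0.0096 to 0.18) and Ptf1a (0.072 to 0.29) by over 1.5 times. Lmo3 and Ldb2 1456786_at were too dim for the filter at the 70th percentile and had no value there.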

Other observations

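Proteins that carry LIM domains but do not belong to the LMO group were measured beside them. Of 12 genes 10 were tested, with log2 changes above 0 for 6 and below 0 for 4 (median 0.02), and 0 had an adjusted p below 0.05 in limma. Csrp2, a LIM protein of smooth muscle and mesenchyme, averaged 6257 ± 333 in Oa1-/- and 5881 ± 711 in WT eyes (SD, n = 3 each), a log2 change of 0.09 (SE 0.10) that dropped to 0.0096 once WT replicate 2 was left out and reached 0.18 once WT replicate 3 was. Fhl1, a muscle LIM protein, averaged 5199.7 ± 256 in Oa1-/- and 5524 ± 974 in WT eyes, a log2 change of −0.07 (SE 0.12). Crip2, singled out after its values were seen, read 3007, 2745 and 2677 in Oa1-/- eyes and 2010, 2230 and 2522 in WT eyes, a log2 change of 0.32 (SE 0.10, unadjusted p = 0.0123, adjusted p = 0.985 in limma).

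WT replicate 1 had the lowest signal of 8 of the 9 lens genes and the highest summed erythroid signal, at 23845, against 3937 to 9518 on the other WT arrays. The Hbb-y probe set read 6006, 7654 and 8704 in Oa1-/- eyes and 19360, 7799 and 2752 in WT eyes.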
